A study of Canis lupus familiaris with 6 samples.

Results

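The kinases of the Hippo cascade, their adaptors and their upstream regulators were examined in canine keratinocytes after cold atmospheric microwave plasma (CAMP) treatment. The 10 genes, STK3, STK4, SAV1, MOB1A, MOB1B, LATS1, LATS2, NF2, WWC1 and TAOK1, were taken by symbol from a deposited table of 35993 genes, a list drawn up with earlier results of these data known. Wild-type CPEK cells, a line of canine epidermal keratinocytes, were exposed for 30 s directly to argon plasma (dCAMP, 3 libraries) or to the gas alone (gas control, 3 libraries). The cells stood for 15 min, received fresh medium and were collected 24 h later, and the methods describe no scratch wound for these dishes. Total RNA was made into stranded mRNA libraries. A single cell line was used, and the labels do not say whether the 3 libraries of a group came from separate cultures. The p-values therefore set the difference between the groups against the spread between these libraries only.

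The Hippo pathway restrains tissue growth. The kinases STK3 and STK4 (MST2 and MST1), held by the scaffold SAV1, phosphorylate and activate LATS1 and LATS2, which act together with the coactivators MOB1A and MOB1B. TAOK1 phosphorylates STK3 and STK4, and NF2 (merlin) and WWC1 (KIBRA) are scaffolds at the cell cortex that promote LATS activation. Active LATS kinases phosphorylate YAP1 and WWTR1 (TAZ) and keep them out of the nucleus, and in the epidermis this controls how basal keratinocytes proliferate and how wounds are closed. Much of this regulation acts on proteins already made, through phosphorylation, which RNA-Seq does not measure.

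The libraries held 43084921 to 54082634 counts on genes. All 9 keratinocyte markers were found at 1 FPKM (fragments scaled for transcript length and mapped reads) or more, summing to 20460 to 25680 FPKM after gas and 19360 to 20570 FPKM after dCAMP. These sums are mostly KRT5 and KRT14, and the markers did not move alike. DSG3, PERP, ITGA6 and CDH1 were higher in every dCAMP library than in any gas library, and KRT14 was lower. KRT5, KRT15, KRT17 and TP63 overlapped. No share of all genes was computed for this order in FPKM. Of the 5 suprabasal markers, which summed to 473.5 to 1094 FPKM after gas and 642.0 to 892.5 FPKM after dCAMP, KRT1 was at 0 in every library. The fibroblast markers summed to 0.839 to 0.972 FPKM after gas and 0.914 to 0.953 FPKM after dCAMP, with DCN, LUM and PDGFRB at 0, and the melanocyte and immune lists also stayed below 1 FPKM. The 3 endothelial markers summed to 0.861 to 1.08 FPKM after gas and 1.22 to 1.45 FPKM after dCAMP, most of it KDR. PECAM1 was at 0 and CDH5 at most 0.207 FPKM. Whether any of these reads came from other cell types was not tested. In a bulk sample, fewer cells of a type and less RNA per cell cannot be told apart. The gas libraries differed among themselves far more than the dCAMP libraries did. The median SD of log2 CPM (CPM are reads scaled to a common, normalized library size) over the genes tested was 0.24 after gas and 0.08 after dCAMP.

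In the gas control, 6 of the 10 genes varied widely between libraries, with SDs of log2 CPM higher than those of 78.8% (SAV1) to 97.2% (MOB1B) of the genes tested, while STK4, LATS2, NF2 and WWC1 stood at 24.9% to 41.5%. STK3, SAV1, MOB1A, MOB1B, LATS1 and TAOK1 stood at 13.6% to 41.2% of the dCAMP mean in gas library 1 and at 36.04% to 67.8% in gas library 2. In gas library 3 the same 6 genes stood at 83.2% to 102.1% of the dCAMP mean. The other 4 genes, STK4, LATS2, NF2 and WWC1, stayed between 84.4% and 125.2% in every gas library. This grouping was made after the values were seen and is a description. Below the range of the dCAMP libraries were 7 members in gas library 1, 8 in gas library 2 and 4 in gas library 3, against 44.2%, 40.9% and 32.05% of the genes tested. Above that range were 3, 1 and 0 members in the same order, against 42.3%, 38.0% and 32.3% of the genes tested. In the dCAMP libraries all 10 genes lay between 90.9% and 116.5% of their own mean.

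**Figure D1:**
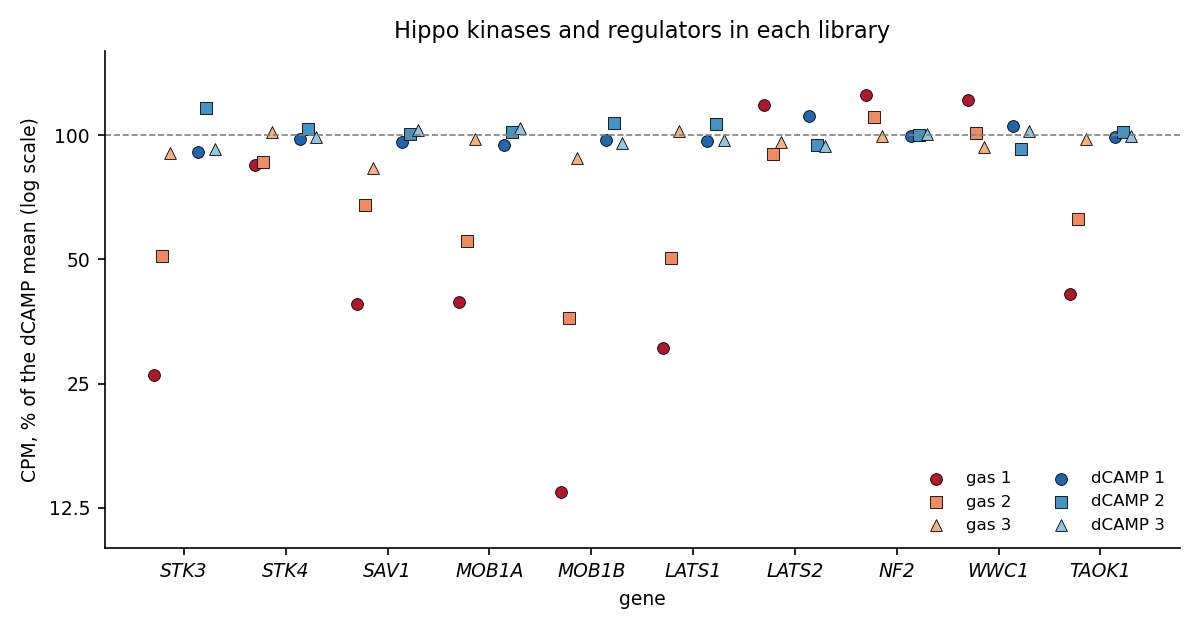
Each point is the CPM of a gene in a library as a percentage of the mean of its 3 dCAMP libraries, on a log axis; red and orange points are gas libraries and blue points dCAMP libraries. In gas library 1, MOB1B stands at 13.6% and STK3 at 26.2%, while gas library 3 lies beside the dCAMP libraries for most genes.

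The comparison of dCAMP-treated cells with the gas control was fitted with edgeR's quasi-likelihood test over 14708 genes, and all 10 members passed its filter on low counts. The log2 fold change was above 0 for 7 members and below 0 for 3, with a median of 0.61 against 0.03 over all genes tested. With Benjamini-Hochberg adjustment none of the 10 members had an adjusted p under 0.05, the lowest being 0.24, and neither did any other gene tested (0.00%), against 3040 genes with an unadjusted p under 0.05. Of the 10 members, 1 (SAV1) had an unadjusted p under 0.05 and was higher in dCAMP-treated cells, where 6.81% of all genes tested did so. No member was lower by that rule, against 13.9% of all genes. The study's methods select genes by DESeq2, on an unadjusted p under 0.05 together with at least a 2-fold change. With edgeR's p-values in place of those of DESeq2, 0 members met these thresholds, against 1.09% of all genes. With DESeq2 itself, restricted to genes counted in every library, 1 member did, as given below.

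In 4 of the 10 members (STK3, SAV1, MOB1B and TAOK1), all 3 dCAMP libraries were above all 3 gas libraries, where 19.0% of the genes tested showed this order. In 0 members were all dCAMP libraries below the gas libraries, against 20.9% of the genes tested. For the other 6 genes the groups overlapped.

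The calls depended on gas library 3. Without it, 6 members (STK3, SAV1, MOB1A, MOB1B, LATS1 and TAOK1) were at adjusted p-values of 0.0203 to 0.0420 in edgeR's test and higher in dCAMP-treated cells, against 15.0% of all genes in that fit. In the same fit, 0 members were lower at an adjusted p under 0.05, against 18.1% of all genes. Without any of the other 5 libraries, 0 members had an adjusted p under 0.05, and over all fits the adjusted p of these 6 genes ranged from 0.000221 to 0.506. Leaving out gas library 1 gave the 10 members a median log2 fold change of 0.34, and leaving out gas library 3 one of 0.88. DESeq2, restricted to genes counted in all 6 libraries, called 1 member, MOB1B, by the 2-fold rule, against 2.14% of the genes tested. The same DESeq2 fit gave 0 members an adjusted p under 0.05, against 1.07%. limma's voom, which weighted gas libraries 1, 2 and 3 at 0.115, 6.73 and 0.192, gave 8 members an adjusted p under 0.05, where 60.8% of all genes had one.

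**Figure D2:**
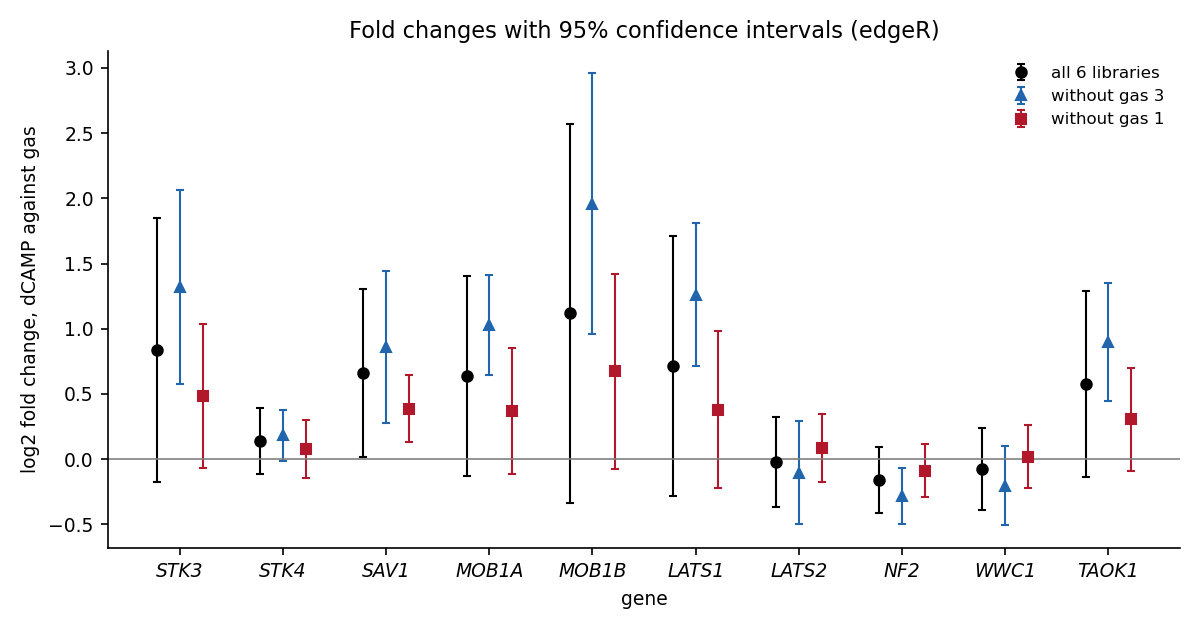
Log2 fold changes of dCAMP against gas from edgeR with 95% confidence intervals, in the fit on all 6 libraries (black), without gas library 3 (blue) and without gas library 1 (red). The intervals of 9 of the 10 genes include 0 in the fit on all libraries, the exception being SAV1, and 7 of the 10 lie away from 0 without gas library 3. No share of all genes was computed for that count. At an adjusted p under 0.05, 15.0% of all genes in the fit without gas library 3 were higher and 18.1% lower.

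Among the kinases that activate LATS, STK3 differed widely between gas libraries and its paralog STK4 varied little. STK3 (ID 475045, on chromosome 13 from 647363 to 920887; all positions are in CanFam3.1, and values are in the order of libraries 1, 2 and 3) measured 3.89, 7.58 and 13.4 CPM after gas alone, and after dCAMP 13.5, 17.3 and 13.8 CPM. Gas library 3 lay just under the lowest dCAMP library, and gas library 1 was far below. The means were 8.30 ± 4.81 CPM (SD, n = 3) after gas and 14.9 ± 2.12 CPM (SD, n = 3) after dCAMP. This gave a log2 fold change of 0.84 (standard error 0.42, 95% confidence interval -0.18 to 1.85, edgeR adjusted p = 0.276). Leaving out gas library 1 lowered it to 0.48, and leaving out gas library 3 raised it to 1.32. The value in gas library 1 rests on 180 reads, with an exact 95% Poisson interval of 154.7 to 208.3 reads that covers counting error only.

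STK4 (ID 477240, on chromosome 24 from 32375630 to 32463848) measured 56.1, 57.1 and 67.6 CPM after gas alone, and after dCAMP 65.0, 68.7 and 65.6 CPM. Gas library 3 fell inside the range of the dCAMP libraries and the other gas libraries slightly below it. Its log2 fold change was 0.14 (standard error 0.11, 95% confidence interval -0.11 to 0.40, edgeR adjusted p = 0.390), and -0.06 when each library's trend on transcript length was removed, so its direction is not settled.

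SAV1, the scaffold that joins STK3 and STK4 to the LATS kinases, was the member with the smallest unadjusted p. SAV1 (ID 480319, on chromosome 8 from 27034606 to 27061926) measured 13.96, 24.3 and 29.8 CPM after gas alone, and after dCAMP 34.5, 36.1 and 37.0 CPM. The groups did not overlap, and gas library 3 stood at 83.2% of the dCAMP mean, the lowest share of any member in that library. The fitted log2 fold change of SAV1 was 0.66 (standard error 0.27, 95% confidence interval 0.01 to 1.30, edgeR adjusted p = 0.240). It ranged from 0.39 to 0.86 when single libraries were left out.

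TAOK1, which phosphorylates STK3 and STK4, had the narrowest spread among the dCAMP libraries after NF2. TAOK1 (ID 480632, on chromosome 9 from 43501752 to 43660077) measured 28.1, 42.7 and 66.5 CPM after gas alone, and after dCAMP 67.3, 69.4 and 67.9 CPM. Gas library 3 was below the lowest dCAMP library by less than 1 CPM, so the separation of the groups rests on gas libraries 1 and 2. Its log2 fold change was 0.57 (standard error 0.30, 95% confidence interval -0.14 to 1.29, edgeR adjusted p = 0.281), and 0.30 without gas library 1.

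Both MOB1 coactivators, which bind the LATS kinases and are needed for their activity, were lowest in gas library 1. MOB1B (ID 482187, on chromosome 13 from 60145168 to 60197916) measured 4.32, 11.4 and 28.0 CPM after gas alone, and after dCAMP 30.8, 33.9 and 30.4 CPM. No other member spanned so wide a range in the gas control, where its SD of log2 CPM was 1.35, higher than that of 97.2% of the genes tested. The fitted log2 fold change of MOB1B was 1.12 (standard error 0.60, 95% confidence interval -0.34 to 2.57, edgeR adjusted p = 0.292), with values of 0.67 without gas library 1 and 1.96 without gas library 3. MOB1A (ID 612924, on chromosome 17 from 48915300 to 48936522) measured 84.2, 118.4 and 209.2 CPM after gas alone, and after dCAMP 201.8, 216.7 and 222.1 CPM. For MOB1A, gas library 3 lay above dCAMP library 1, so the groups overlapped. Its log2 fold change was 0.64 (standard error 0.32, 95% confidence interval -0.13 to 1.40, edgeR adjusted p = 0.273), and 0.37 without gas library 1. The MOB1A and MOB1B proteins are near-identical, and how reads that match both genes were assigned is not given in the sources used here, so the division of reads between them is uncertain.

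The LATS kinases, which phosphorylate YAP1 and WWTR1, did not vary alike across the gas libraries. LATS1 (ID 476241, on chromosome 1 from 40430096 to 40475193) measured 14.4, 23.8 and 48.3 CPM after gas alone, and after dCAMP 45.7, 50.3 and 45.9 CPM. Gas library 3 lay within the dCAMP range, while gas libraries 1 and 2 stood at 30.5% and 50.2% of the dCAMP mean. The log2 fold change was 0.71 (standard error 0.41, 95% confidence interval -0.28 to 1.71, edgeR adjusted p = 0.310), 0.38 without gas library 1 and 1.26 without gas library 3. LATS2 (ID 477343, on chromosome 25 from 17110620 to 17169826) measured 28.2, 21.5 and 23.0 CPM after gas alone, and after dCAMP 26.5, 22.6 and 22.5 CPM. Here gas library 1 was the highest of the 6 and gas library 2 the lowest, and the groups overlapped. The log2 fold change of LATS2 was -0.02 (standard error 0.14, 95% confidence interval -0.37 to 0.32, edgeR adjusted p = 0.927), and it was 0.08 without gas library 1.

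NF2 and WWC1, the cortical scaffolds, were higher in gas library 1 than in any dCAMP library, as was LATS2. Of the genes tested, 42.3% lay above the dCAMP range in that library. NF2 (ID 477535, on chromosome 26 from 22816869 to 22896103) measured 124.2, 109.5 and 98.8 CPM after gas alone, and after dCAMP 98.5, 99.5 and 99.7 CPM. Gas library 3 was within the dCAMP range, whose coefficient of variation was 0.628%. For NF2 the log2 fold change was -0.16 (standard error 0.10, 95% confidence interval -0.41 to 0.09, edgeR adjusted p = 0.344), and -0.28 without gas library 3. WWC1 (ID 479297, on chromosome 4 from 43279788 to 43431503) measured 56.1, 46.8 and 43.1 CPM after gas alone, and after dCAMP 48.5, 42.7 and 47.3 CPM. Gas libraries 2 and 3 lay within the dCAMP range. Its log2 fold change was -0.08 (standard error 0.13, 95% confidence interval -0.39 to 0.24, edgeR adjusted p = 0.699), and 0.02 without gas library 1. For STK4, LATS2, NF2 and WWC1 the intervals of this fit lay within -0.41 to 0.40, and with the length trend removed they reached down to -0.29, -0.70, -0.78 and -0.70, so a 2-fold difference was outside them in both fits, whereas in the fit without that correction the intervals of STK3, SAV1, MOB1A, MOB1B, LATS1 and TAOK1 all reached past 1.

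Levels of different genes were compared per transcript length, on the FPKM scale. MOB1A had the highest mean level of the 10 genes, at 26.7 ± 12.1 FPKM (SD, n = 3) after gas and 41.6 ± 2.27 FPKM (SD, n = 3) after dCAMP. NF2 followed with 19.1 ± 2.54 and 17.1 ± 0.253 FPKM. After gas the ranges of MOB1A and NF2 overlapped, and in gas library 1 NF2 was higher (21.8 against 16.8 FPKM). In dCAMP-treated cells the order continued with SAV1 (12.9 FPKM), STK4 (10.9 FPKM), WWC1 (9.14 FPKM), MOB1B (8.16 FPKM), LATS1 (5.97 FPKM), TAOK1 (5.02 FPKM), STK3 (4.55 FPKM) and LATS2 (3.91 FPKM). The ranges of the 3 dCAMP libraries overlapped between neighbours in that order for WWC1 and MOB1B, for TAOK1 and STK3, and for STK3 and LATS2, and were separate for the other neighbours. In the gas control LATS2, LATS1, MOB1B, TAOK1 and STK3 followed each other with means of 3.99, 3.79, 3.71, 3.36 and 2.54 FPKM, and every neighbouring pair of these overlapped.

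**Figure D3:**
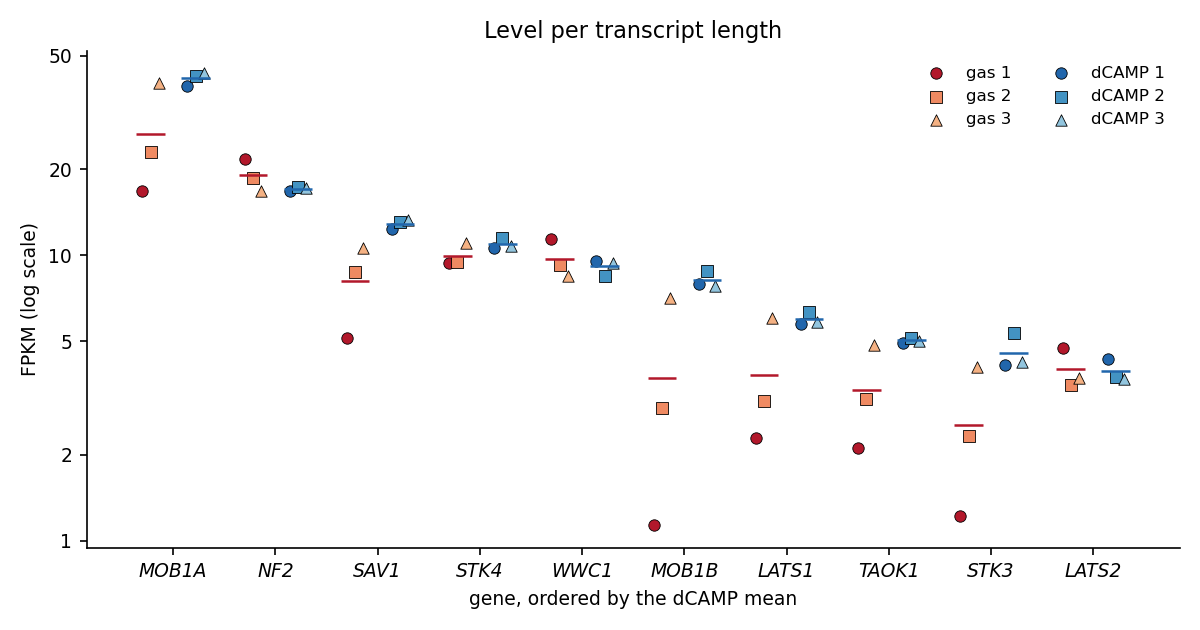
FPKM of each gene in each library on a log axis, with short lines at the group means, ordered by the dCAMP mean. MOB1A and NF2 are the highest, and the gas libraries of MOB1B spread from 1.13 to 7.09 FPKM.

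The paralogs of 3 pairs were compared within each library, as a ratio that needs no scaling between libraries. MOB1B reads amounted to 5.13%, 9.65% and 13.4% of MOB1A reads after gas, and to 15.3%, 15.7% and 13.7% after dCAMP. STK3 reads amounted to 6.93%, 13.3% and 19.8% of STK4 reads after gas, and to 20.8%, 25.2% and 21.0% after dCAMP. For both pairs the dCAMP libraries were all above the gas libraries, as they were for the CPM of MOB1B and STK3 themselves. No share was computed over other pairs of genes, so this order is a description and not a result about the pairs. The difference in mean log2 ratio was 0.77 for MOB1B to MOB1A and 0.86 for STK3 to STK4, each with p = 0.1 in a two-sided exact permutation test over the libraries, the smallest value that 3 against 3 libraries allow. Adjusted over the 3 pairs with the Benjamini-Hochberg method, both were 0.15. Without gas library 1 the differences were 0.39 and 0.45, and without gas library 3 they were 1.08 and 1.21.

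LATS1 and LATS2 changed places among the libraries. Per transcript length, LATS1 stood at 48.4% and 88.0% of LATS2 in gas libraries 1 and 2, and at 161.3% in gas library 3. In the dCAMP libraries it stood at 133.4%, 169.9% and 157.9%. LATS1 reads amounted to 51.1%, 110.6% and 210.2% of LATS2 reads after gas, and to 172.5%, 222.2% and 204.1% after dCAMP. The read ratio in gas library 3 was inside the dCAMP range, and the difference in mean log2 read ratio of 0.91 had p = 0.3 (two-sided exact permutation test, 0.3 after adjustment over the 3 pairs). On FPKM values the difference was 0.79.

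**Figure D4:**
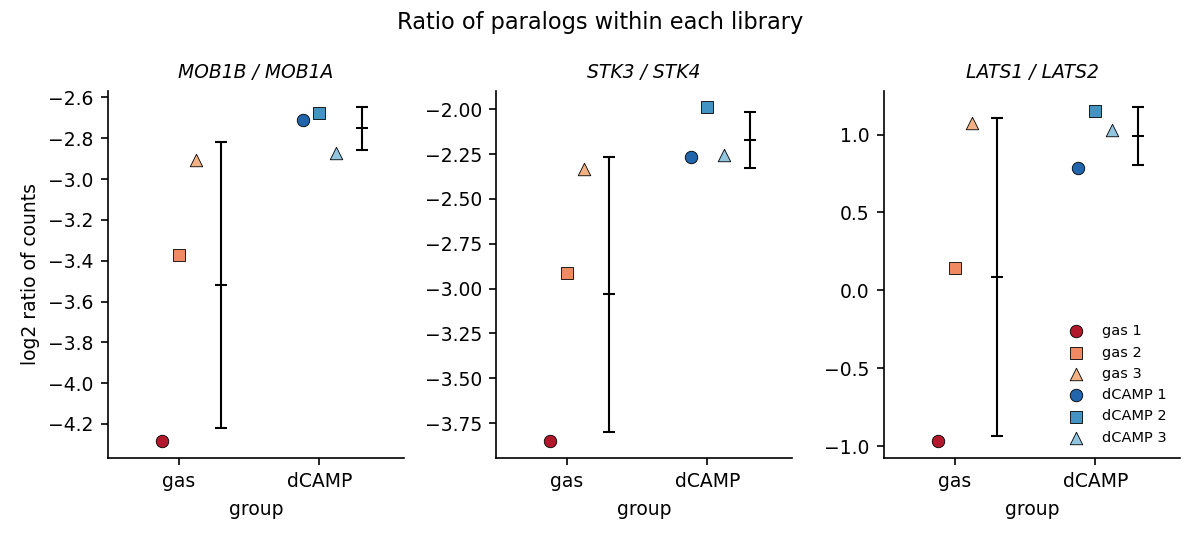
Log2 ratio of the read counts of 2 paralogs within each library, for MOB1B to MOB1A, STK3 to STK4 and LATS1 to LATS2; bars give the mean and SD of each group, and each panel has its own axis. The dCAMP libraries lie together and the gas libraries spread downward, with gas library 1 lowest in all 3 panels.

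The deposited transcript table divides the reads of each gene among its annotated transcripts. SAV1 and LATS2 have 1 transcript each, and STK3, STK4 and MOB1B had 99.3%, 99.3% and 98.7% of their reads on variant X1. MOB1A divided its reads between variants X1 and X2, which differ by 2 bases in length, with 87.8% to 91.7% on X1 in every library. NF2 lists 13 transcripts, of which X2 held 64.1% to 71.4% and X1 26.6% to 34.2% of its reads, and neither share separated the groups. In WWC1 the share of variant X2 was 43.2%, 38.6% and 32.2% after gas and 28.0%, 24.1% and 25.9% after dCAMP. Variant X1 held 14.1%, 6.50% and 14.3% after gas and 19.9%, 25.1% and 18.7% after dCAMP, and variant X3 held 9.47%, 5.28% and 9.45% after gas and 12.3%, 24.4% and 13.3% after dCAMP. The groups did not overlap for any of the 3, X2 being lower and X1 and X3 higher after dCAMP. The WWC1 variants X2, X1 and X3 have lengths of 4446, 4464 and 4446 bases, and the assignment of reads among such similar transcripts is an estimate.

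The main variants of LATS1 and TAOK1 overlapped between the groups. TAOK1 has the variants X1 and X2, of 11931 and 11919 bases. All its reads were assigned to X1 in gas library 2 and in dCAMP library 3, while X2 received 24.3% and 32.4% in gas libraries 1 and 3 and 43.4% and 44.7% in dCAMP libraries 1 and 2. In LATS1 the long variant X1 (7095 bases) held 9.45%, 15.4% and 74.5% of the reads after gas and 64.3%, 36.4% and 75.8% after dCAMP. The short LATS1 transcript of 3367 bases held 13.0%, 1.84% and 0.820% after gas and 0.520%, 0.371% and 0.289% after dCAMP, so that every gas library was above every dCAMP library. That of 3150 bases held 8.25% in gas library 1 and at most 1.998% in any other library, and its groups overlapped. Of the 22 member transcripts with at least 1% of their gene's reads, in genes with several transcripts, 2 had shares that were higher in all dCAMP libraries (9.09%) and 2 lower (9.09%), against 5.20% and 5.29% of 27449 such transcripts over all genes tested. Read totals of a gene are the sums of these estimates and do not depend on how the reads were divided within a gene. FPKM values are scaled for transcript length, so for genes with several transcripts they can depend on that division.

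Transcript length moved with the difference between the gas and dCAMP libraries. The genes tested were divided by length into 4 groups of 3677 genes, and the group with the shortest transcripts had a median log2 ratio to the dCAMP mean of 0.18 in gas library 1, 0.10 in gas library 2 and 0.02 in gas library 3. The group with the longest transcripts, of 4053 bases and more, had medians of -0.31, -0.20 and -0.04. Of the 10 members, 9 were longer than the median of 2518 bases, and STK4, MOB1A, LATS1, LATS2, NF2, WWC1 and TAOK1 belong to the group with the longest. Within that group LATS1, MOB1A and TAOK1 had log2 ratios of -1.71, -1.34 and -1.28 in gas library 1, below the group's median, STK4 had -0.24, and LATS2, NF2 and WWC1 had 0.24, 0.32 and 0.28. MOB1B, STK3 and SAV1, with transcripts of 3417, 2865 and 2445 bases, had log2 ratios of -2.88, -1.93 and -1.36. When each library's trend on length was removed, the median log2 fold change of the members went from 0.61 to 0.42, and those of MOB1B, STK3 and SAV1 were 1.05, 0.79 and 0.63. In that fit the value of TAOK1 went from 0.57 to 0.34 and that of NF2 from -0.16 to -0.38. Why the trend on length differed between the gas libraries was not tested.

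**Figure D5:**
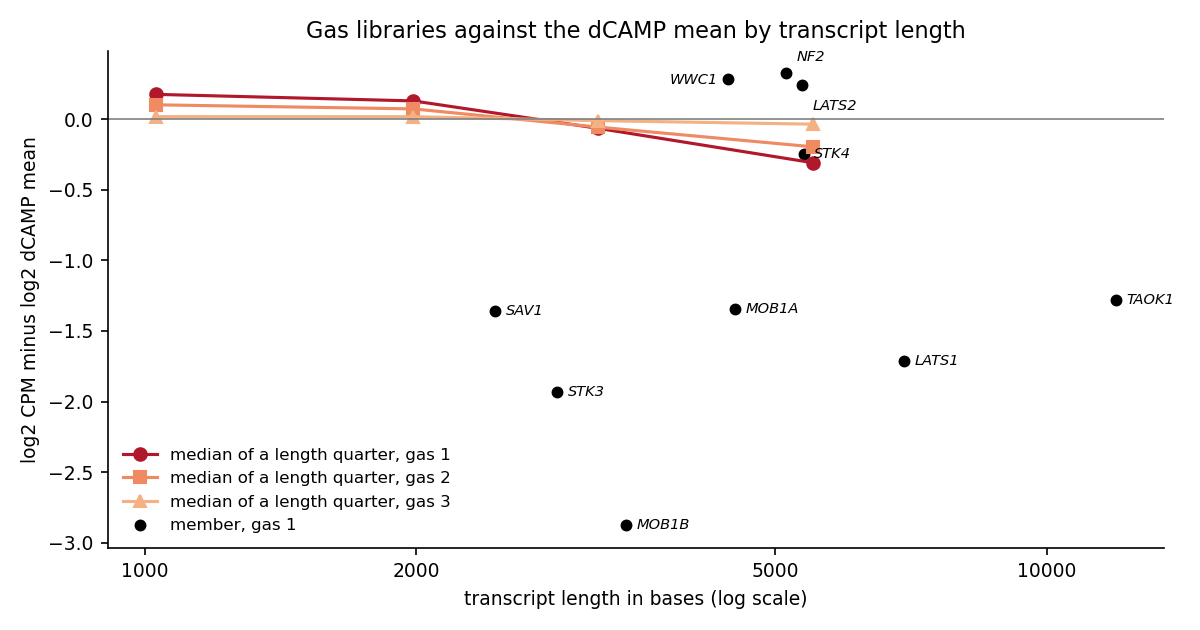
Log2 CPM in a gas library minus the log2 of the dCAMP mean, against transcript length on a log axis; lines join the medians of the 4 length groups for each gas library, and black points are the 10 genes in gas library 1. The line of gas library 1 goes from 0.18 to -0.31, and 6 of the 10 genes lie below -1.

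Some of the reads could belong to neighbouring genes. The loci of STK3, MOB1B, WWC1 and TAOK1 overlap other annotated genes, which were assigned at most 8 reads in any library, against 180 or more for each member. These counts come from the same assignment of reads, so they do not show whether a neighbour's reads were counted to a member. That was not tested. STK4, SAV1, MOB1A, LATS1, LATS2 and NF2 overlap no other gene in the deposited table.

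The other genes of the pathway were taken from lists of 50 genes in 9 roles, of which 47 were tested. Of the 47 genes, 25 had a log2 fold change above 0 and 22 below 0, with a median of 0.01, and by edgeR 0 had an adjusted p under 0.05. At an unadjusted p under 0.05, 7 genes were higher (14.9%, against 6.81% of all genes tested) and 4 were lower (8.51%, against 13.9%). When the length trend was removed, 3 genes were higher and 8 lower at that threshold, and 7 of these 11 genes were also among the 11 found without the correction (3 higher and 4 lower). The dCAMP libraries were all above the gas libraries for 13 genes and all below for 8, or 27.7% and 17.0%, against 19.0% and 20.9% of all genes tested. The 7 higher genes were 4 kinases of the TAO and MAP4K families (TAOK3, MAP4K3, MAP4K5 and TNIK), 2 scaffolds (WWC2 and FRMD6) and SLMAP of the STRIPAK phosphatase complex, which removes phosphate from STK3 and STK4. The 4 lower genes were RASSF1, the STRIPAK subunit STRN4 and the casein kinases CSNK1D and CSNK1E, which mark YAP1 and WWTR1 for degradation. With the length trend removed, the 4 lower genes passed the threshold again, as did MAP4K3, MAP4K5 and SLMAP. TAOK3, TNIK, WWC2 and FRMD6 did not. These 11 genes were named after their values were seen, because they passed the unadjusted threshold.

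The close relatives of the members gave mixed values. TAOK2 measured 90.5, 83.0 and 70.5 CPM after gas alone and 66.9 to 69.5 CPM after dCAMP, which gave a log2 fold change of -0.25 (standard error 0.11), opposite in sign to TAOK1. TAOK3 measured 23.7, 29.6 and 31.6 CPM after gas alone and 35.4 to 35.95 CPM after dCAMP, which gave a log2 fold change of 0.33 (standard error 0.13). WWC2 measured 37.0, 37.2 and 36.8 CPM after gas alone and 43.6, 45.6 and 42.0 CPM after dCAMP, which gave a log2 fold change of 0.24 (standard error 0.09, edgeR adjusted p = 0.227). On the FPKM scale its groups overlapped, with 5.29, 7.31 and 6.71 FPKM after gas alone and 6.05, 8.23 and 5.86 FPKM after dCAMP. For WWC3 the value was -0.04 (standard error 0.09). The NDR kinases, which like LATS bind MOB1 proteins, had log2 fold changes of 0.22 (STK38, standard error 0.12) and 0.72 (STK38L, standard error 0.49), and STK38L had 11.1 CPM in gas library 1 against 48.7 to 52.8 CPM in the dCAMP libraries. At the output, YAP1 measured 74.7, 62.0 and 62.6 CPM after gas alone and 58.4 to 61.0 CPM after dCAMP. Every dCAMP library was below every gas library, an order that 20.9% of the genes tested showed. The log2 fold change of YAP1 was -0.15 (standard error 0.11, edgeR adjusted p = 0.365). By qRT-PCR, in a passage on cells with wound lesions, the paper reports higher YAP mRNA after dCAMP. WWTR1 measured 53.5, 66.8 and 91.2 CPM after gas alone and 90.7 to 94.1 CPM after dCAMP, so that its gas library 3 lay within the dCAMP range. Its log2 fold change was 0.39 (standard error 0.19).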

How the data were processed

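RNA-Seq was carried out on 3 gas-treated and 3 dCAMP-treated CPEK libraries. The authors trimmed the reads (FastQC 0.11.7, Trimmomatic 0.38), removed PCR duplicates, mapped to CanFam3.1 (HISAT2 2.1.0) and summarized known transcripts (StringTie 2.1.3b). The annotation release is not given in the sources used here. The deposited counts are unnormalized reads, given for each gene and transcript, and the authors' FPKM values are scaled for transcript length and mapped reads. The deposited TPM columns were not used. Total counts per library were 43084921 to 54082634. Poisson intervals leave out all error but that of counting.

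The test was run in R 4.3.3 with edgeR 4.0.16 (TMM, filterByExpr, quasi-likelihood test, prior count of 2, Benjamini-Hochberg adjustment over 14708 genes). Standard errors are the log2 fold change divided by the root of F. The fit takes the same dispersion of a gene in both groups, whereas the gas libraries spread more than the dCAMP libraries. CPM are counts scaled to TMM-normalized libraries. A gene's length is the mean of its transcript lengths weighted by reads. Alternatives were DESeq2 1.42.0, limma 3.58.1 (voom with sample quality weights), RLE factors, no filter, a length offset (lowess, span of 0.3), the replicate number as a block, and leaving out each library. The steps were tested on simulated counts with the same dispersion in both groups and no trend on length. The libraries here differ from that in both respects, so the simulation does not show how the fits perform on them. The members, the pathway lists and the markers were chosen with earlier results of these data known. The genes named are the 10 members and, outside them, 8 close relatives and output genes; genes past the unadjusted threshold were named after their values were seen. MOB4 was not found by symbol, and RASSF2 and AMOT did not pass the filter. Replicates were not duplicates of each other: the chi-square per degree of freedom between their counts was at least 6.26.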

Additional observations from a re-analysis of the deposited data

How the results depend on the processing

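No cause was tested for the changes below. Of the 10 members, 1 had an unadjusted p under 0.05; the number was 3 with DESeq2 restricted to genes counted in all 6 libraries, 8 with voom, 3 with the replicate block and 4 with the replicate block and length offset, and 0 to 7 in the fits without 1 library, with 7 without gas library 3 and 0 without gas library 2 or any dCAMP library. The number past the 2-fold rule was 0, where 161 of all genes passed. The number was 1 with DESeq2 restricted to genes counted in all 6 libraries (327 of all genes). It was also 1 with voom (1010 of all genes) and with the replicate block and length offset (471 of all genes). In the fits without 1 library it was 0 to 4. The 4 were found without gas library 3, where 1523 of all genes passed. For an adjusted p under 0.05 the number of members was 0, but 8 with voom, where 60.8% of all genes tested had one, and 0 to 6 without 1 library. The 6 were found without gas library 3, where 15.0% of all genes were higher and 18.1% lower at that threshold. For the unadjusted counts under these other settings no share of all genes was computed, so they are not a result about the members. The log2 fold change of STK4, 0.14, was -0.0621 with the length offset and -0.06203 with the replicate block and length offset. That of LATS2, -0.02, was 0.1505 with voom and -0.1319 to 0.08441 in the fits without 1 library, and that of WWC1, -0.08, was -0.203 to 0.02028 in those fits. With the length offset LATS2 was at -0.25 and WWC1 at -0.27, and with the replicate block and length offset they were at -0.22 and -0.25. The median log2 fold change of the members was 0.42 to 0.69 under the other settings and 0.34 to 0.88 without 1 library.

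Of the other pathway genes, 11 had an unadjusted p under 0.05, with 32 by voom and 0 to 28 without 1 library. No share of all genes was computed for these other settings, so the counts are not a result about the pathway. Over all genes the 2-fold rule called 161, with 369 by DESeq2, 327 by DESeq2 restricted to genes counted in all 6 libraries, 1010 by voom, 279 without a filter, 435 with the replicate block, 471 with the replicate block and length offset, and 135 to 1523 without 1 library. An adjusted p under 0.05 was found for 0 genes, with 295 by DESeq2, 163 by DESeq2 restricted to genes counted in all 6 libraries, 8944 by voom and 0 to 4953 without 1 library. The paralog differences, recomputed on FPKM values, with the replicate block and without each library, kept their sign, at 0.39 to 1.08 for MOB1B to MOB1A, 0.45 to 1.21 for STK3 to STK4 and 0.38 to 1.40 for LATS1 to LATS2 without 1 library. The replicate block gave 0.77, 0.86 and 0.91 for them. It is an alternative only, since deviations of same-numbered gas and dCAMP libraries correlated at 0.162, 0.0167 and 0.0591 and nothing in the labels pairs them.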
